A study of Homo sapiens with 12 samples.

Results

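The 10 genes ROBO4, ESAM, VWF, TIE1, KDR, ESM1, VEGFA, VEGFC, ANGPTL4 and PECAM1 are best known from blood vessels, as endothelial genes or as signals that act on endothelium, and were followed in an ovarian carcinoma line given a cAMP-raising drug. They were chosen by name, as 10 of the 21207 genes measured, and were found by matching Ensembl gene identifiers to symbols. The genes were proposed with results of these libraries in view, so the p-values printed for them describe these data and are not independent evidence. All 10 were measured and all 10 passed the filter on low values. The cells were HEYA8, an established human ovarian cancer line, cultured in DMEM with serum. The 4 groups had 3 libraries each: a vehicle group (0 µM) and groups treated for 48 h with 1 µM, 5 µM or 10 µM of the drug colforsin daropate. Colforsin daropate is a water-soluble forskolin derivative that activates adenylyl cyclase. All 4 groups share the 1 line and the 1 time point. The 3 libraries of a group are called biological replicates by the submitters and carry the numbers 6, 8 and 11, which recur in every group and whose meaning the labels do not give.

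Endothelial cells line blood vessels and grow in response to VEGF ligands, which bind receptor tyrosine kinases such as KDR (VEGF receptor 2). A second receptor system, angiopoietins with TIE1 and TEK, and the guidance-type receptor ROBO4 act on vessel stability. ESAM and PECAM1 are adhesion proteins at endothelial junctions, VWF is the clotting protein stored in Weibel-Palade bodies, and ESM1 (endocan) and ANGPTL4 are secreted proteins linked to vessel growth and, for ANGPTL4, to lipid metabolism. Carcinoma cells are well-known sources of VEGFA, whereas the receptors and junction proteins are usually taken as marks of endothelium.

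Expression was measured by RNA sequencing of ribosome-depleted total RNA. The deposited values are variance-stabilised, close to a log2 scale at high levels and flattened at low ones, with 4.86 as the lowest value in the table. Read counts were recovered from their steps, and a "count" below is a recovered count divided by the library's size factor. The libraries held 24.0 to 48.6 megareads on genes, fewest in the vehicle library of number 6. Libraries of the same number deviated together from their group means, and 30.8% of tested genes differed between numbers at matched dose, so differences are also given within numbers and without number 6. Each fit used all 12 libraries (limma, Benjamini-Hochberg adjustment over 17767 genes, called at an adjusted p under 0.05). The 3 comparisons against vehicle share the vehicle libraries. In bulk RNA, fewer cells of a kind and less RNA per cell cannot be told apart.

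At 10 µM, 7 of the 10 genes were called, 2 higher (VEGFA, ANGPTL4) and 5 lower (ROBO4, ESM1, ESAM, VWF, VEGFC), where 22.6% of all tested genes were called (11.2% higher, 11.4% lower). At 5 µM the count was 6, all of these but VEGFC, where 15.1% of all genes were called (7.67% higher, 7.44% lower). At 1 µM it was 2, VEGFA higher and ESAM lower, where 1.8% of all genes were called (1.18% higher, 0.613% lower). In this fit, which has no block for the label number, TIE1, KDR and PECAM1 passed in none of the 3 comparisons. The median difference over the 10 genes at 10 µM was -0.42 on the stabilised scale, against 0.0 over all genes tested. With the label number as a block the counts were 8, 8 and 4 at 10, 5 and 1 µM, where 38.4%, 30.6% and 12% of all genes were called. The block added TIE1 at 10 µM, TIE1 and VEGFC at 5 µM, and ROBO4 and ESM1 at 1 µM. Without the libraries of number 6 the counts were 8, 8 and 5, where 33.4%, 27.8% and 12.2% of all genes were called. Without number 8 they were 2, 1 and 0, where 599, 137 and 4 of all 17767 genes were called. Without number 11 they were also 2, 1 and 0, where 962, 205 and 2 of all genes were called. Both times ROBO4 and VEGFA were the 2 called at 10 µM.

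**Figure D1:**
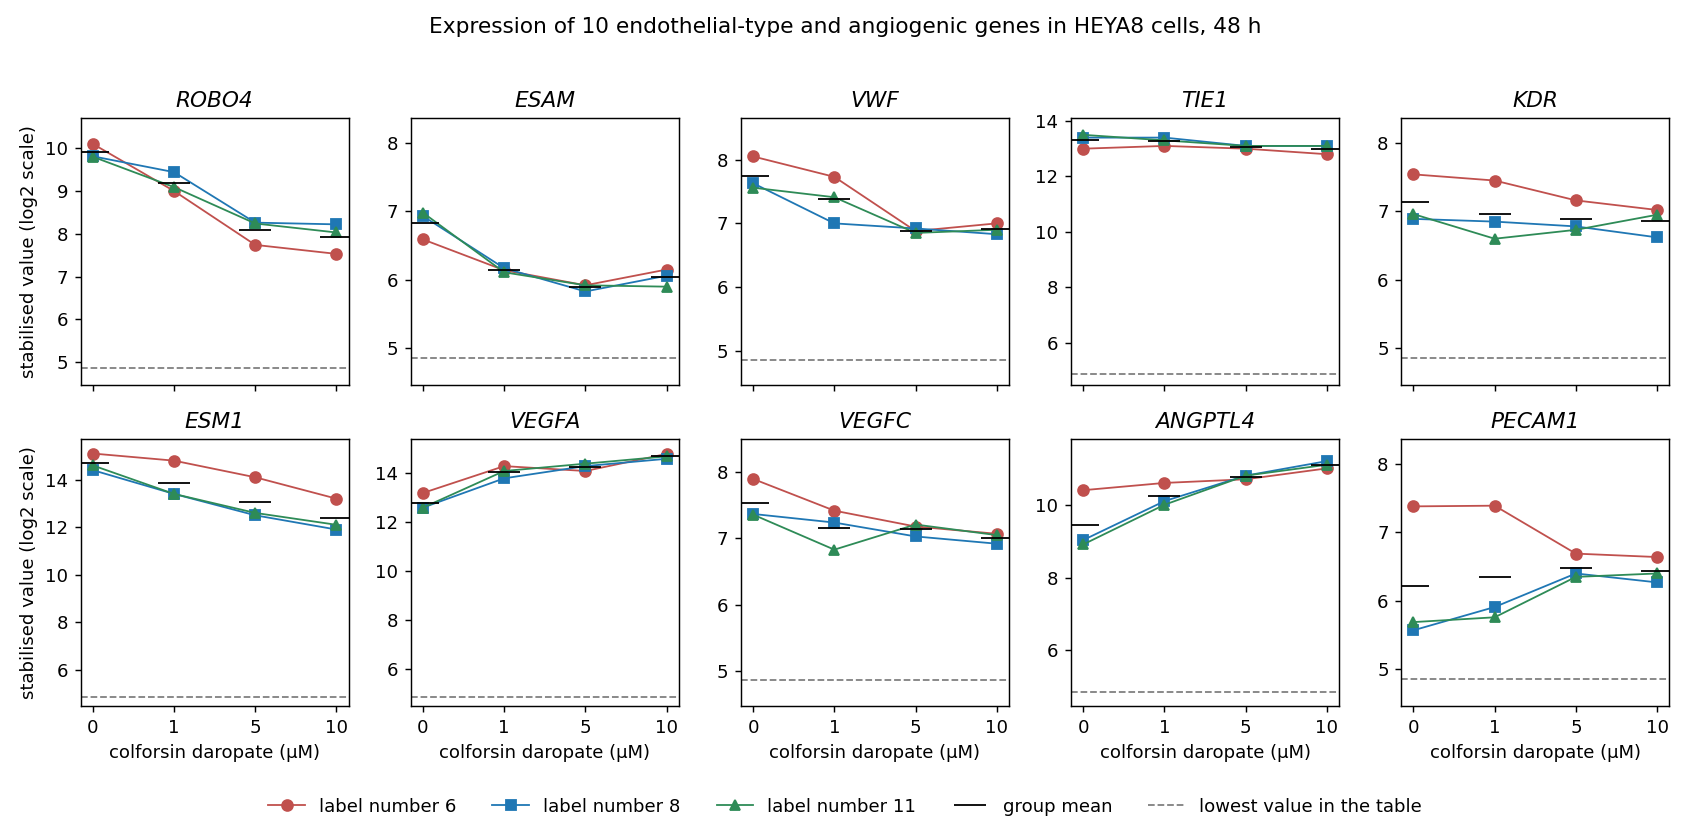
Deposited value of each gene (vertical axis, log2 scale) in the 12 libraries by dose (horizontal axis, doses evenly spaced), with 1 line per label number, black bars for group means and a dashed line at the lowest value in the table, 4.86. VEGFA and ANGPTL4 climb with dose, ROBO4 and ESM1 descend, and PECAM1 and ESAM lie nearest to the dashed line.

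VEGFA (ENSG00000112715.26, chr6:43770184-43786487, plus strand) encodes the main ligand of KDR and had the smallest adjusted p of the 10 genes at 10 µM. Its counts were 9352, 6150 and 6150 in the vehicle libraries 6, 8 and 11, then 20113, 14205 and 17502 at 1 µM. At 5 µM they were 17502, 20113 and 21561, and at 10 µM 28468, 24775 and 26558. Every treated library lay above every vehicle library, and the 10 µM libraries lay above all others. The mean count rose from 7217 ± 1849 (SD, n = 3) to 17273 ± 2961 at 1 µM, 19725 ± 2057 at 5 µM and 26600 ± 1847 at 10 µM, a 3.69-fold rise at the highest dose. On the stabilised scale the rise was 1.27 ± 0.17 (SE) at 1 µM (limma adjusted p = 0.00374), 1.47 at 5 µM (0.000286) and 1.90 at 10 µM (3.25e-05). Within numbers 6, 8 and 11 the difference at 10 µM was 1.6, 2.0 and 2.1. An antisense gene, AL136131.3, shares 188 exonic bases with VEGFA, 1.3% of VEGFA's exon length, and the strand setting of the counting is not given in the sources used here. Reads of the 2 genes therefore may not be separated. The mean count of the antisense gene over the 12 libraries was 1446.

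VEGFC (ENSG00000150630.4, chr4:176683538-176792727, minus strand), the lymphatic growth factor of the family, was low in these cells and went the other way. Its counts were 184, 112 and 111 with vehicle, 118, 98.5 and 63.0 at 1 µM, 92.6, 78.9 and 95.5 at 5 µM and 82.4, 69.8 and 80.7 at 10 µM. The 5 and 10 µM libraries lay below all vehicle libraries, while the 1 µM libraries overlapped them. The mean fell from 136 ± 41.8 (SD, n = 3) to 77.6 ± 6.81 at 10 µM, 1.75-fold lower, or -0.53 ± 0.17 (SE) on the stabilised scale (limma adjusted p = 0.046). That call was narrow: it was lost on leaving out any 1 library other than number 6 or 11 at 1 µM, with adjusted p up to 0.131 (-0.35, without vehicle 6), and it was 0.00924 with the block. Of the other VEGF ligands and receptors, 5 of 7 could be tested at 10 µM. Only VEGFB, a ligand of VEGF receptor 1, passed (-0.56 ± 0.16 SE, limma adjusted p = 0.0282).

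ANGPTL4 (ENSG00000167772.12, chr19:8363289-8374373, plus strand), a secreted inhibitor of lipoprotein lipase, rose at 5 and 10 µM. Its vehicle counts were 1294, 466 and 425, so that number 6 started well above 8 and 11. At 1 µM the counts were 1494, 1040 and 967, at 5 µM 1606, 1725 and 1725, and at 10 µM 1990, 2295 and 2137. The 1 µM libraries overlapped the vehicle libraries through number 6, and the 5 and 10 µM libraries did not. The mean rose from 728 ± 490 (SD, n = 3) to 1685 ± 68.9 at 5 µM and 2141 ± 152 at 10 µM, 2.94-fold over vehicle. The stabilised difference was 1.32 ± 0.31 (SE) at 5 µM (limma adjusted p = 0.0147) and 1.65 ± 0.31 at 10 µM (0.003). In the fit without the block, leaving out the vehicle library of number 8 or that of number 11 ended the 5 µM call (adjusted p = 0.0641 and 0.0596). With the block, ANGPTL4 passed at 5 µM (limma adjusted p = 0.00187) and 10 µM (0.000277) and not at 1 µM (0.0636). Its 5 µM adjusted p without the libraries of number 6 was 2.1e-05. Leaving out all libraries of number 8 or of number 11 ended the 5 µM call (limma adjusted p = 0.29 and 0.254). The same was true of the 10 µM call (0.133 and 0.0934). Without the libraries of number 6, ANGPTL4 also rose at 1 µM, by 1.08 ± 0.07 (adjusted p = 0.00058), and it did so without the vehicle library of number 6 alone (1.26 ± 0.15, adjusted p = 0.00127).

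The size of the ANGPTL4 response differed between label numbers. At 10 µM it was 0.60 above vehicle in number 6, but 2.17 in number 8 and 2.19 in number 11. Over the 4 doses taken as ranks, the slope per dose step was 0.19 in number 6 and 0.73 in numbers 8 and 11, a difference of -0.54 ± 0.08 (SE, limma adjusted p = 0.00524). PECAM1 was the only other member with such a difference, 2 of 10 where 3.09% of all genes were called. Number 6 is a single series of libraries, so this test does not measure the spread between label numbers. Vehicle 6 was the shallowest library, at 24.0 megareads on genes against 41.2 and 47.1 megareads for vehicle 8 and 11, and the part of depth in this difference was not tested.

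Promoter sequence upstream of a start site was at hand for 6 of the 10 genes (TIE1, KDR, VEGFC, ESM1, ROBO4 and ANGPTL4) from RefSeq, build GRCh38.p14. ESAM, VWF, VEGFA and PECAM1 had no entry. Those of ANGPTL4 and VEGFC are printed, as a member called higher and a member called lower at 10 µM. The bases printed overlap no exon in GENCODE 29. Capitals mark every match, on either strand, to the letters searched: TGACG (the CRE core bound by CREB), ACGTG or GCGTG (the core of a hypoxia response element), CGGAAG or AGGAAG (ETS factors) and GGGCGG (a GC box). ANGPTL4 is shown from chr19:8363905-8364150 on the plus strand, the bases 250 to 5 before its start. VEGFC is shown from chr4:176792923-176793172 on the minus strand, the 250 bases before its start.
ANGPTL4: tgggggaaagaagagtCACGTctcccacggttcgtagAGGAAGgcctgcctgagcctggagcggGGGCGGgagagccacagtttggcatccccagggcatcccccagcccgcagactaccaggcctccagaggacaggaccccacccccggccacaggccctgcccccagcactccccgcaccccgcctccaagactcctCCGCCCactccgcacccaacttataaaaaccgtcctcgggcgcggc
VEGFC: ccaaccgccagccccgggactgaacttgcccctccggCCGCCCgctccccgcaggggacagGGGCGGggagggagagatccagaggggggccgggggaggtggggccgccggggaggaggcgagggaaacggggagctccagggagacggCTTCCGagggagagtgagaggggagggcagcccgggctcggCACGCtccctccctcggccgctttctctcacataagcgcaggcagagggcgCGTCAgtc
The RefSeq start of VEGFC lies upstream of the start in GENCODE 29. The ANGPTL4 stretch lies inside the span of that gene in GENCODE 29. Its full 250-base window holds 4 exon bases, and the stretch shown ends 5 bases before the start. The ANGPTL4 stretch held 1 ACGTG, 1 AGGAAG and 2 GC boxes and no CRE core. The VEGFC stretch held 1 CRE core, 1 GCGTG, 1 CGGAAG and 2 GC boxes.

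None of the 6 windows held the full palindromic CRE (TGACGTCA), which 1.65% of the 35116 promoters in the RefSeq table hold in the same 250 bases. A CRE core was in 2 of 6 windows (VEGFC and ESM1, both called lower at 10 µM), against 21.2% of all promoters. All 250 bases of the ESM1 window and of the ROBO4 window lie in GENCODE 29 exons, inside the span of each gene. Matches in these windows are counted all the same. ACGTG was in 2 (ESM1 and ANGPTL4; 18.5% of all), GCGTG in 2 (VEGFC and ESM1; 32.2%) and a GC box in 4 (KDR, VEGFC, ROBO4 and ANGPTL4; 42.6%). AGGAAG was in 3 (TIE1, ROBO4 and ANGPTL4; 28.7%) and CGGAAG in VEGFC alone (16.5%). A full CRE counts also as CRE cores. These are matches of letters in a short window and say nothing of whether a factor binds there or elsewhere.

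ESM1 (ENSG00000164283.13, chr5:54977864-55022671, minus strand), the secreted proteoglycan endocan, was the most abundant member per length with vehicle and fell with dose. Its counts were 35062, 21561 and 24775 with vehicle and 28468, 10751 and 10751 at 1 µM. At 5 µM they were 17502, 5734 and 6150, and at 10 µM 9352, 3764 and 4332. Number 6 was the highest library at each dose, in each number the count was lower at every step of dose, and the 5 and 10 µM libraries lay below all vehicle libraries. The mean went from 27132 ± 7052 (SD, n = 3) to 5816 ± 3076 at 10 µM, 4.67-fold lower. The stabilised difference was -1.63 ± 0.49 (SE) at 5 µM (limma adjusted p = 0.0448) and -2.30 ± 0.49 at 10 µM (0.00624). Between numbers ESM1 differed by 1.19 ± 0.11 at matched dose (6 against 8 and 11, adjusted p = 1.19e-05), and with the number as a block its standard error at 10 µM was 0.15 (adjusted p = 4.04e-07). At 1 µM the difference of -0.83 passed with the block (adjusted p = 0.00434) and not without it (0.456). In the fit without the block, the 5 µM call was lost on leaving out any 1 vehicle library (adjusted p 0.0793 to 0.0993). It was also lost there on leaving out any 1 treated library of number 8 or 11 (0.054 to 0.152). The 5 µM difference passed with the block (limma adjusted p = 9.2e-06) and without the libraries of number 6 (3.87e-05). It did not pass without all libraries of number 8 (limma adjusted p = 0.322) or of number 11 (0.358). The 10 µM call was lost in these 2 fits as well (0.111 and 0.113).

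VWF (ENSG00000110799.14, chr12:5948874-6124770, minus strand), which carries clotting factor VIII and tethers platelets, was low and fell further. Its counts were 210, 144 and 135 with vehicle, 158, 76.4 and 117 at 1 µM, 66.7, 69.8 and 64.5 at 5 µM and 76.4, 63.0 and 68.3 at 10 µM. The 6 libraries at 5 and 10 µM all lay below the vehicle libraries, between 63.0 and 76.4. The mean fell from 163 ± 40.9 (SD, n = 3) to 67.0 ± 2.7 at 5 µM and 69.2 ± 6.75 at 10 µM, 2.36-fold lower at the highest dose (-0.84 ± 0.18 SE, limma adjusted p = 0.00558). A pseudogene copy of part of VWF, VWFP1, is annotated in GENCODE 29 and was not analysed here, so reads shared between the copies could not be separated.

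ROBO4 (ENSG00000154133.15, chr11:124883691-124898500, minus strand) is the Roundabout receptor that is normally restricted largely to endothelium, and it had the smallest adjusted p of the genes called lower at 10 µM. Its counts were 1040, 840 and 834 with vehicle and 455, 638 and 488 at 1 µM. They were 159, 251 and 247 at 5 µM and 131, 243 and 206 at 10 µM. The vehicle, 1 µM and 5 µM groups did not overlap one another, and the 10 µM group overlapped the 5 µM group. The mean went from 905 ± 117 (SD, n = 3) to 527 ± 97.1, 219 ± 51.7 and 193 ± 56.9, or 1.72-fold, 4.13-fold and 4.68-fold lower. On the stabilised scale the difference was -0.73 ± 0.20 (SE) at 1 µM (limma adjusted p = 0.0924, and 0.0115 with the block), -1.82 at 5 µM (0.000194) and -1.98 at 10 µM (6.89e-05). The 10 µM difference was -2.57, -1.59 and -1.77 within numbers 6, 8 and 11. The antisense genes AP003501.1 and AP003501.2 share 10.6% and 6.37% of ROBO4's exon length, at mean counts of 40.2 and 29.4, and their reads may not be separated from those of ROBO4. Of the other ROBO receptors and SLIT ligands, 4 could be tested and limma called 0 at 10 µM, with 1 at an unadjusted p under 0.05 and 1 called by voom on the recovered counts. SLIT2, a secreted ROBO ligand named here after its values were seen, differed by 0.98 ± 0.33 (limma adjusted p = 0.0548, and 0.00013 with the block).

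TIE1 (ENSG00000066056.14, chr1:43300993-43323108, plus strand), a receptor tyrosine kinase otherwise typical of endothelium, was abundant, and its counts differed little between doses. Its counts were 8134, 10751 and 11527 with vehicle, 8722, 10751 and 10027 at 1 µM, 8134, 8722 and 8722 at 5 µM and 7073, 8722 and 8722 at 10 µM. The groups overlapped at every dose, and number 6 was the lowest library in each group. The mean at 10 µM was 8172 ± 952 (SD, n = 3) against 10137 ± 1778 with vehicle, a stabilised difference of -0.30 ± 0.13 (SE, limma adjusted p = 0.131). With the block, TIE1 passed at 10 µM (adjusted p = 0.00598) and at 5 µM (0.0282), and without number 6 the difference was -0.35 ± 0.05 at both doses (adjusted p = 0.00346 and 0.00435). It also passed without the vehicle library of number 6 alone, at 10 µM (-0.45, adjusted p = 0.0148) and at 5 µM (-0.38, 0.0386). TIE1 values are deposited in steps of 0.1. The standard error of 0.05 without number 6 is below that step and may understate the spread. The mean count at 10 µM was 1.24-fold lower than with vehicle.

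KDR (ENSG00000128052.10, chr4:55078259-55125595, minus strand), the main signalling receptor for VEGFA, was scarce. Its counts were 132, 67.5 and 73.1 with vehicle, 121, 64.5 and 47.5 at 1 µM, 90.7, 59.4 and 55.9 at 5 µM and 78.1, 48.7 and 72.2 at 10 µM. The groups overlapped throughout, and the largest count was that of number 6 in every group. The 10 µM difference was -0.27 ± 0.23 (SE, limma adjusted p = 0.456; 0.133 with the block). KDR was 0.50 ± 0.10 higher in number 6 than in 8 and 11 at matched dose (limma adjusted p = 0.00221).

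**Figure D2:**
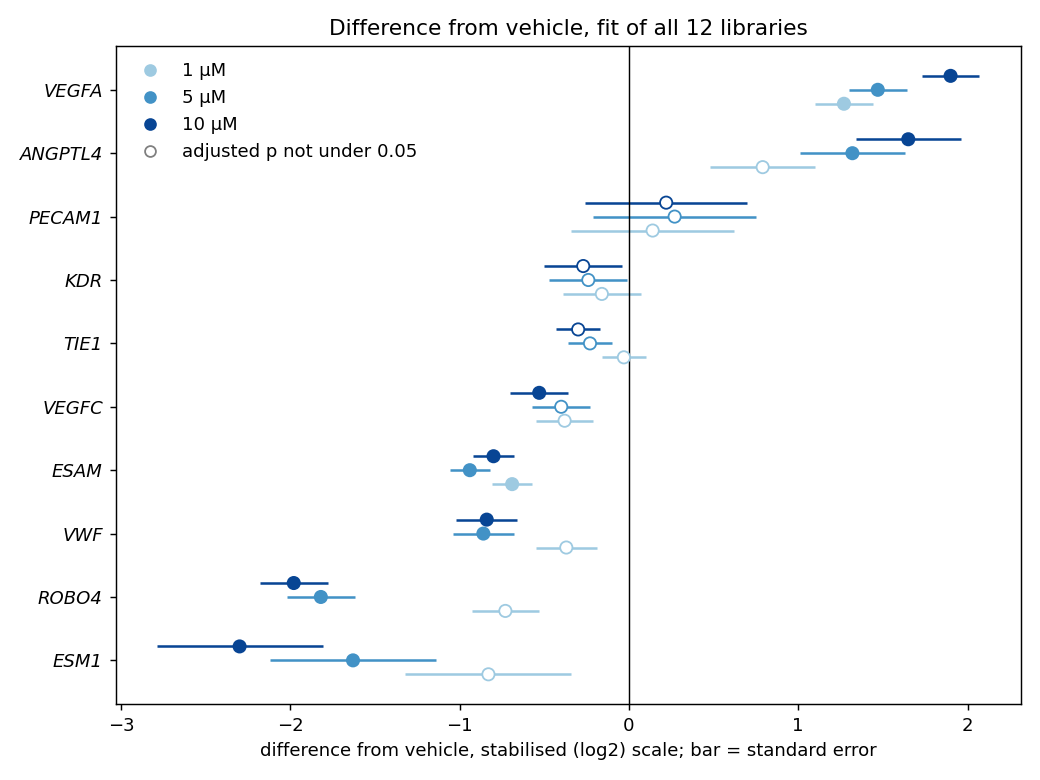
Fitted difference from vehicle (horizontal axis, stabilised log2 scale) for each gene at 1, 5 and 10 µM, in the fit without the block. Bars show 1 standard error. Filled points passed an adjusted p of 0.05 over all genes and open points did not. VEGFA and ANGPTL4 lie to the right, at 1.90 and 1.65 at 10 µM, and ROBO4 and ESM1 farthest to the left, at -1.98 and -2.30.

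ESAM (ENSG00000149564.12, chr11:124752583-124762290, minus strand), an adhesion molecule of endothelial tight junctions and platelets, fell at every dose from an already low level. Its counts were 46.9, 70.6 and 74.7 with vehicle, 24.3, 25.5 and 23.1 at 1 µM, 16.3, 13.5 and 16.3 at 5 µM and 24.7, 21.2 and 15.7 at 10 µM. All 9 treated libraries lay below all vehicle libraries, and the 3 doses lay close together. The treated values rest on few reads, 15 to 26 per library. The mean fell from 64.1 ± 15.0 (SD, n = 3) to 24.3 ± 1.22, 15.4 ± 1.59 and 20.5 ± 4.55, or 2.64-fold, 4.17-fold and 3.12-fold lower. The stabilised differences were -0.69 ± 0.12 (SE) at 1 µM (limma adjusted p = 0.0139), -0.94 at 5 µM (0.000497) and -0.80 at 10 µM (0.000781), which understate the change of so low a gene; on log2 of the recovered counts the last was -1.59 ± 0.25. The 1 µM call was lost on leaving out vehicle 8 (adjusted p = 0.0789), vehicle 11 (0.0693), 1 µM number 8 (0.059) or 1 µM number 11 (0.0618).

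PECAM1 (ENSG00000261371.6, chr17:64319415-64413776, minus strand), the CD31 antigen of endothelium, platelets and leukocytes, differed between label numbers, and its call over all 12 libraries depended on how they were weighted. Its counts were 113, 7.11 and 9.8 with vehicle and 115, 16 and 11.6 at 1 µM. They were 53.2, 36.2 and 33.7 at 5 µM and 50, 29.9 and 36.2 at 10 µM. Number 6 lay above 8 and 11 at every dose, by most in the vehicle and 1 µM groups, and the 3 numbers were closer together at 5 and 10 µM. The vehicle counts of numbers 8 and 11 stood for 8 and 12 reads, that of number 6 for 73. The fit over all libraries, weighted equally, called PECAM1 at no dose and gave 0.22 ± 0.48 (SE) at 10 µM (limma adjusted p = 0.784). With library weights estimated from the data, PECAM1 was higher at 5 µM (0.78 ± 0.21, adjusted p = 0.00984) and 10 µM (0.72 ± 0.25, 0.0311). Within numbers the difference was -0.74 in number 6, 0.70 in 8 and 0.71 in 11, so the directions were opposite. The slope per dose step was -0.29 in number 6 and 0.27 in 8 and 11, a difference of -0.56 ± 0.09 (limma adjusted p = 0.00596). Without number 6, PECAM1 was 0.70 ± 0.11 higher at 10 µM (adjusted p = 0.00281) and 0.74 at 5 µM (0.00277).

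Beside PECAM1, the 12 defining endothelial markers held 5 further genes with data: VWF, CDH5, TEK, SOX17 and PLVAP. CDH5, or VE-cadherin, the adherens junction cadherin of endothelium, was abundant, with vehicle values of 12.9, 10.8 and 10.8 and 10 µM values of 12, 12 and 11.9 on the stabilised scale. It was not called at 10 µM over all libraries (0.47 ± 0.47, limma adjusted p = 0.526), and within numbers 6, 8 and 11 it differed by -0.90, 1.20 and 1.10. Its slope differed between number 6 and the others by -0.69 ± 0.14 (limma adjusted p = 0.0181), in the direction seen for PECAM1 and ANGPTL4. SOX17, a transcription factor of arterial endothelium that ovarian carcinoma also expresses, had a slope difference of -0.46 ± 0.08 (limma adjusted p = 0.00838). TEK (0.02 ± 0.09, adjusted p = 0.934) and VWF (-0.15 ± 0.10, 0.471) of the same list did not pass. The carcinoma markers KRT18 (-0.28 ± 0.05, adjusted p = 0.00838) and KRT8 (-0.27 ± 0.06, 0.0355) had a slope difference in the same direction. Other genes of the lists read below passed in either direction. Number 6 had the lower slope in, for example, THBS1 (-0.74 ± 0.08, limma adjusted p = 0.00064) and CCN2 (-0.57 ± 0.11, 0.0127). It had the higher slope in, for example, CXCL8 (0.49 ± 0.12, 0.0297), SEMA3F (0.41 ± 0.08, 0.0135) and GATA2 (0.31 ± 0.07, 0.0213). TEK, the angiopoietin receptor, lay between 5.55 and 6.04 in all 12 libraries, within 1 of the lowest value in 7 of them. PLVAP, a protein of fenestrated vessel diaphragms, went from 21, 8 and 7 reads with vehicle to 0, 1 and 0 at 10 µM and was too low to be tested. CLDN5, EMCN, CD34, ERG, SOX18 and CLEC14A were not matched by symbol in the data and so were not analysed here.

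**Figure D3:**
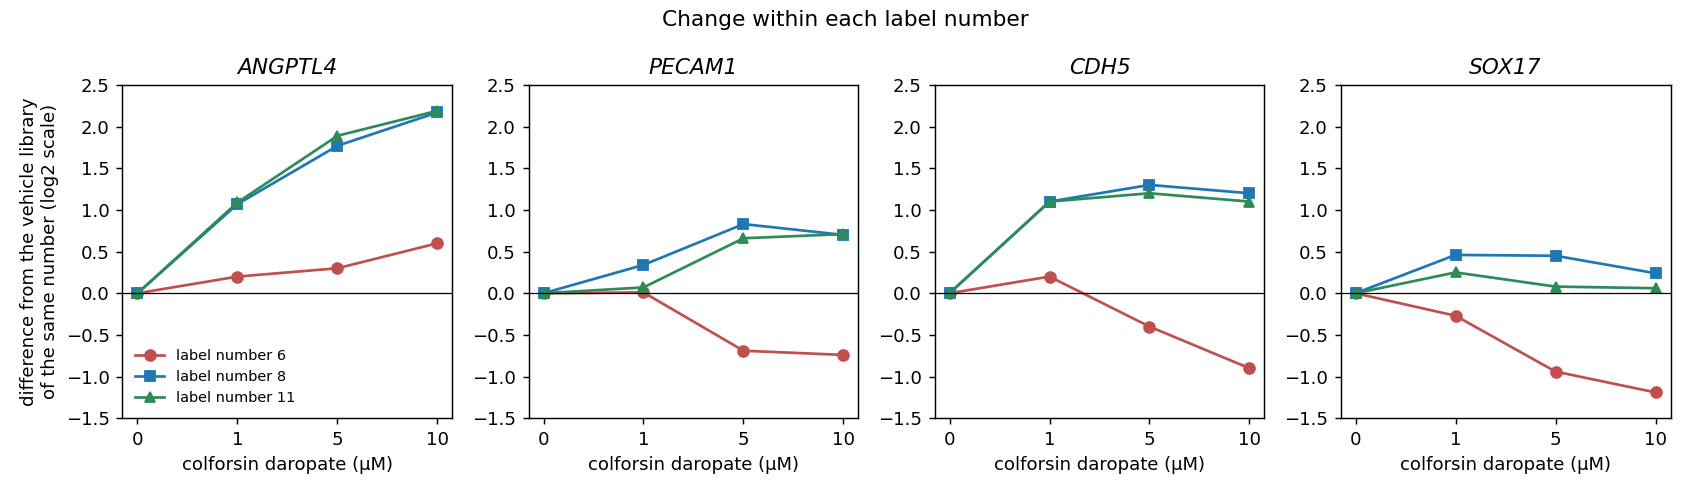
Difference of each treated library from the vehicle library of the same label number (vertical axis, log2 scale) by dose (horizontal axis, doses evenly spaced) for ANGPTL4, PECAM1, CDH5 and SOX17, chosen because their slopes differed between label numbers; TEK and VWF, whose slopes did not pass that test, are not drawn. In number 6 the 10 µM points lie at 0.60, -0.74, -0.90 and -1.19, below those of numbers 8 and 11 in all 4 panels. Genes with a higher slope in number 6, such as CXCL8 and SEMA3F, are not drawn.

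Between label numbers at matched dose, 4 of the 10 genes differed in a joint test of the 3 numbers (TIE1, KDR, ESM1 and PECAM1), where 30.8% of all genes were called. This count fell to 2 without the 1 µM library of number 6, where 3634 of all 17767 genes were called. In the comparison of number 6 with the mean of 8 and 11, those 4 genes and VWF passed. The share of all genes that passed this comparison was not counted, so these passes cannot be read as particular to the 10 genes. Number 6 was lower in TIE1 by -0.27 ± 0.05 (SE, limma adjusted p = 0.002). It was higher in ESM1 by 1.19 ± 0.11 (1.19e-05), PECAM1 by 0.98 ± 0.21 (0.00309), KDR by 0.50 ± 0.10 (0.00221) and VWF by 0.28 ± 0.10 (0.0476). Differences between numbers 8 and 11 ran from -0.13 in VEGFA to 0.14 in ROBO4. The summed count of the defining endothelial markers, mostly CDH5, ranged from 2088 to 8437 over the vehicle libraries and from 4086 to 4639 at 10 µM. Blood cell markers summed to 8.27 to 40.4 counts in any library over the 4 of 14 genes measured, and the leukocyte marker PTPRC (CD45) had 0 to 13 reads. Mural cell and fibroblast markers (9 of 12 genes) summed to 1977 to 2617 counts with vehicle and 1435 to 1855 at 10 µM. Ovarian carcinoma and epithelial markers (10 of 14 genes) summed to 40655 to 68898 counts with vehicle and 40737 to 43063 at 10 µM, with KRT8 and KRT18 the largest. CDH1, MUC1, MUC16 and FOLR1 of that list were not matched by symbol in the data and so were not analysed here. Of its measured genes, 2 lay within 1 of the lowest value in all vehicle libraries. At 10 µM, 1 of 9 tested mural and fibroblast markers was higher (RGS5, 0.52 ± 0.10) and 2 lower (ABCC9, -0.96 ± 0.18, and ACTA2, -0.38 ± 0.11), with 2 higher and 4 lower under the block and 1 and 4 without number 6. At the same dose, 3 of 8 tested carcinoma markers were higher (KRT7, 1.13 ± 0.35, CD24, 1.01 ± 0.16, and PAX8) and 2 lower (KRT8, -0.83 ± 0.17, and KRT18). What part any of these markers had in the results for the 10 genes was not tested.

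Per kilobase of exon, the mean level over the 12 libraries spanned from ESM1 at 5510 counts to PECAM1 at 5.5. The length used is that of all annotated exons joined (14431 bases for VEGFA, 2695 for ESM1). It can exceed that of the transcripts expressed, so the order between genes is approximate. With all doses pooled, the order was ESM1 (5510), TIE1 (1369), VEGFA (1227), ANGPTL4 (576), ROBO4 (65.6), VEGFC (40.9), KDR (11.6), ESAM (10.6), VWF (10.0) and PECAM1 (5.5). ESM1, TIE1 and VEGFA thus lay at the percentiles 98.8, 94.1 and 93.3 of all genes with a known length, and PECAM1 at 12.8. Only 2 neighbouring pairs had ranges that did not overlap over the libraries, ANGPTL4 above ROBO4 and VEGFC above KDR. On this scale TIE1 and VEGFA exchanged places with dose. TIE1 led with vehicle (1514 ± 266 against 500 ± 128, SD, n = 3) and VEGFA at 10 µM (1843 ± 128 against 1221 ± 142). ROBO4 lay above VEGFC with vehicle (129 ± 16.7 against 56.1 ± 17.3), without overlap, and below it in the mean at 5 µM (31.2 ± 7.35 against 36.8 ± 3.66) and 10 µM (27.5 ± 8.09 against 32.1 ± 2.81), where the libraries overlapped. The order of KDR, ESAM and VWF also turned with dose. With vehicle ESAM had the highest mean (21.9 ± 5.15, against 15.7 ± 3.94 for VWF and 13.9 ± 5.48 for KDR), with overlap. At 5 µM KDR (10.5 ± 2.92) lay above VWF (6.45 ± 0.26) and VWF above ESAM (5.27 ± 0.546), with no overlap between their libraries. Of the 3 receptors, TIE1 was thus abundant, ROBO4 intermediate and KDR scarce. CDH5 stood at 743 counts per kilobase, at percentile 88.4, between VEGFA and ANGPTL4.

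**Figure D4:**
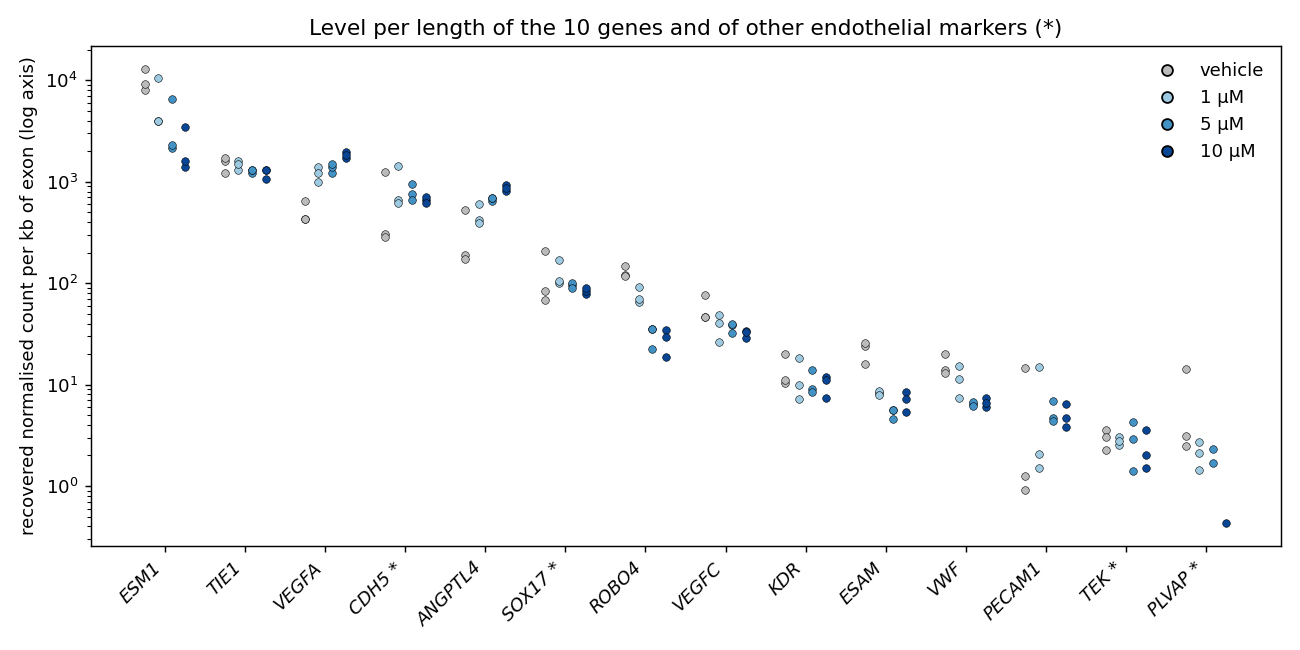
Recovered normalised count per kilobase of exon (vertical log axis) in each of the 12 libraries, coloured by dose, for the 10 genes and the other measured endothelial markers (asterisks), ordered by mean level. Libraries with 0 reads (3 of PLVAP) are not drawn; ESM1 lies highest, with a mean of 5510, and PECAM1 is the lowest of the 10, with a mean of 5.5.

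Of the 10 genes, 2 were near the lowest value in the table. ESAM lay on average 1.37 above it, with 1 library, number 8 at 5 µM, within 1 of it. PECAM1 lay 1.51 above it, with 3 libraries within 1, vehicle 8, vehicle 11 and number 11 at 1 µM. KDR (2.10), VEGFC (2.35) and VWF (2.37) were the next lowest. No member was at the minimum in any library. The remaining 5 were 3.91 (ROBO4) to 9.10 (VEGFA) above it. A filter asking for values more than 2 above the minimum in at least 3 libraries removed ESAM and PECAM1 and kept the other 8.

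Between doses, ROBO4 was the only member called. From 1 to 5 µM it differed by -1.10 ± 0.20 (SE, limma adjusted p = 0.0455), where 0.31% of all genes were called; with the block the count was 2 (ROBO4 and ESM1), against 5.19%. From 1 to 10 µM ROBO4 was again the only member called, where 4.71% of all genes were called; with the block the count was 6 (ROBO4, VWF, TIE1, ESM1, VEGFA and ANGPTL4), against 20.9%. The 1 to 5 µM call of ROBO4 was lost on leaving out any 1 library other than vehicle 6 or 10 µM number 6. The 1 to 10 µM count rose to 3 without vehicle 6, where 1421 of all genes were called. From 5 to 10 µM no member and no gene was called by limma (0 of 17767, 0.0%; 601 genes at an unadjusted p under 0.05, VEGFA among the members), nor by voom on the recovered counts. In the test of any difference among the 4 groups, 6 of 10 passed (ROBO4, ESAM, VWF, ESM1, VEGFA and ANGPTL4), where 14.8% of all genes did.

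Other genes of these pathways were read from 8 lists holding 111 further genes, of which 84 were measured and 76 tested. At 10 µM, 11 of the 76 were higher and 12 lower, 30.3% in all beside 22.6% of all genes, with a median difference of -0.08. At 5 µM 9 were higher and 7 lower, and at 1 µM 2 were higher and none lower. With the block, 13 were higher and 5 lower at 1 µM, 18 and 16 at 5 µM, and 19 and 21 at 10 µM (52.6%, beside 38.4% of all genes). Without number 6, 18 were higher and 16 lower at 10 µM. Calls in these lists thus went in both directions. ANGPT1, the ligand that activates TEK, was the only angiopoietin or angiopoietin-like gene called of 7 tested, higher by 1.24 ± 0.37 (SE, limma adjusted p = 0.0328), from a mean count of 30.6 to 128. Of 8 further junction and surface markers, CD93, an endothelial C-type lectin-like receptor, was called, lower by -0.61 ± 0.18 (adjusted p = 0.0319).

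Endothelial transcription factors counted 2 higher and 5 lower of 15 at 10 µM. KLF4, a shear-responsive factor, was lower (-1.80 ± 0.29 SE, limma adjusted p = 0.00118), as were KLF2, ETS1, LMO2 and LYL1. EPAS1, the hypoxia-inducible factor HIF-2α, was higher (1.63 ± 0.21, adjusted p = 0.000364), and so was SOX7, a relative of SOX17 (1.25 ± 0.23, adjusted p = 0.00299). Of 13 genes of Weibel-Palade bodies, haemostasis and vessel tone, 3 were higher and 4 lower. PLAT, tissue plasminogen activator, was highest among them (2.19 ± 0.24, adjusted p = 0.000112; mean count 1115 to 4993). PROCR, the protein C receptor, was lower (-1.14 ± 0.22, adjusted p = 0.00391), and MYRIP, a linker of secretory granules to myosin, was higher (0.97 ± 0.29, adjusted p = 0.0315).

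Of 15 other angiogenic growth factors, 2 were higher and none lower at 10 µM: CXCL8, an angiogenic chemokine (1.37 ± 0.29 SE, limma adjusted p = 0.00635), and HBEGF, a ligand of the EGF receptor (1.09 ± 0.31, adjusted p = 0.0266). With the block 3 were higher and 3 lower, and without number 6, 4 and 3. CXCL8 was 2.5 higher in number 6 and 0.80 higher in both 8 and 11. Of 10 angiogenesis inhibitors, 3 were higher and 1 lower. SEMA3F, a repellent semaphorin (1.41 ± 0.26), and COL18A1, the collagen that yields endostatin (1.20 ± 0.19), were higher, and TIMP3, a metalloprotease inhibitor that also blocks VEGF binding to KDR, was lower (-1.13 ± 0.21).

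VEGFA and ANGPTL4 are also known targets of hypoxia signalling, and ANGPTL4 of PPAR receptors, so those lists were read without them. Of 27 hypoxia targets tested, 3 were higher and 3 lower at 10 µM, and 9 higher and 4 lower without number 6. DDIT4, an mTORC1 inhibitor, was higher (1.20 ± 0.25 SE, limma adjusted p = 0.00589), while NDRG1 (-1.20 ± 0.28, adjusted p = 0.0107) and the glycolytic enzyme HK2 (-1.07 ± 0.18, adjusted p = 0.00157) were lower. Of 7 PPAR targets tested, 4 were higher and none lower, but 5 were higher and 1 lower both with the block and without number 6. The 4 higher genes included CAT, catalase (1.07 ± 0.25, adjusted p = 0.0106), the carnitine carrier SLC25A20 (0.51 ± 0.08) and ACSL1, an acyl-CoA synthetase (0.47 ± 0.12). With the label number as a block, the 10 µM counts of the other lists above that moved by over 1.5 times were 7 higher and 4 lower for Weibel-Palade bodies and vessel tone, and 6 and 5 for hypoxia targets. They were 1 and 2 for VEGF ligands and receptors, 1 and 1 for angiopoietins, 1 and 0 for ROBO receptors and SLIT ligands, and 1 and 2 for junction and surface markers. Without number 6 they were 1 and 2 for VEGF ligands and receptors, 1 and 0 for ROBO receptors and SLIT ligands, and 1 and 1 for junction and surface markers.

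**Figure D5:**
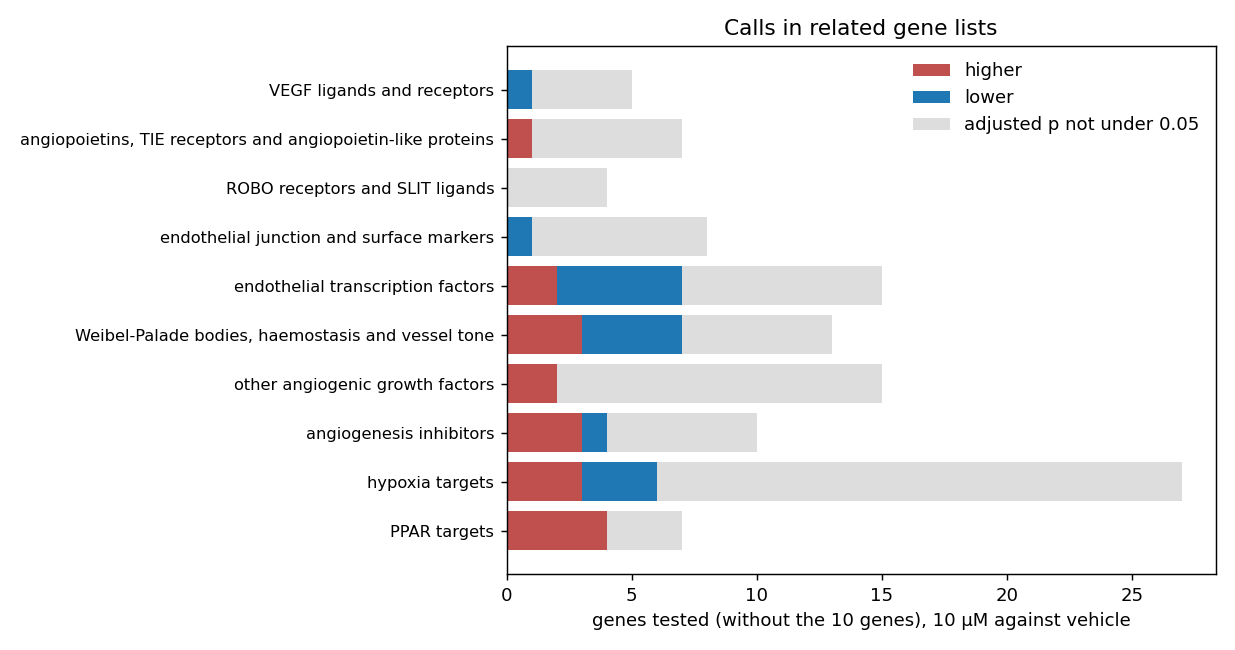
Number of tested genes in each related list (horizontal axis, the 10 genes left out) that were higher, lower or not called at 10 µM against vehicle, in all 12 libraries. Of the 10 lists, 4 hold calls in both directions, such as the endothelial transcription factors, with 2 higher and 5 lower of 15.

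The genes whose values most resembled each member's over the 12 libraries were taken as the 2 with the highest Pearson r among all tested genes. These correlations are descriptions over 12 libraries that share doses, label numbers and depth. VEGFA was nearest to its own antisense gene AL136131.3 (identifier ENSG00000272114, r = 0.996), with which it may share reads, and to SNTB1, a syntrophin (r = 0.990). ANGPTL4 was nearest to KANK2 (0.970) and PLAT (0.964), whose group means were both higher at each step of dose. ROBO4 was nearest to BTBD3 (0.984) and PRPS2 (0.981), ESAM to HES2 (0.98) and RASAL2 (0.978), and VWF to MAN1A1 (0.971) and GPR160 (0.961). TIE1 was nearest to MYBBP1A (0.985) and NLRP3 (0.977), and KDR to TNFAIP8L1 (0.953) and ANKRD13A (0.950). ESM1 was nearest to the long noncoding RNA gene NCMAP-DT (0.969) and to ENSG00000287263 (0.967). VEGFC had the loosest neighbours, SUCLG1 (0.918) and ENSG00000231092 (0.917), and PECAM1 was nearest to ARRB1 (0.965) and RGS20 (0.964).

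Among the 10 genes themselves, the same measure over the 12 libraries set VEGFA with ANGPTL4 (r = 0.92) and against ESAM (-0.91) and ROBO4 (-0.85). TIE1 went against ANGPTL4 (-0.82). ROBO4 went with VWF (0.82) and ESAM (0.79), and ESM1 with VWF (0.85). KDR and PECAM1, which were high in number 6, went together (0.78), as did KDR and VEGFC (0.81), and PECAM1 went against TIE1 (-0.74), which was low there.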

How the data were processed

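Total RNA of 12 HEYA8 cultures was sequenced after ribosomal depletion, per the labels' protocols. The deposited table holds 21211 rows, of which 4 name no gene, and gives variance-stabilised values on a log2 scale to 3 significant digits. DESeq2 and the builds GRCh38 and hg38 are named in the submitters' processing notes; the aligner, annotation and strand setting are not given in the sources used here.

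Read counts were recovered from the steps of the low values by fitting the floor and 12 size factors. Of 60238 low values, 100% came out whole within 0.2 reads, against 43.4% with the depths of another library. The libraries held 24.0 to 48.6 megareads on genes. Values of 10 and above are rounded to 0.1, which limits the counts recovered there and the standard errors of genes at that level. Positions and exon lengths came from GENCODE 29, and symbols from a separate list of gene names.

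Genes more than 1 above the lowest value in at least 3 libraries (17767) were fitted by limma 3.58.1 in R 4.3.3 with 4 dose groups, a variance trend and two-sided Benjamini-Hochberg adjustment. The script was tested on simulated data. Deviations of same-numbered libraries from their group means correlated at 0.316 to 0.777 in all 18 pairs (-0.711 to 0.569 in 36 other pairs). The numbers, which recur in the labels, were therefore taken as pairing the libraries in the block fit. The main fit has no block, so its standard errors and p-values ignore that pairing. Whether the 3 libraries of a group came from separate cultures is not stated beyond the submitters' word for replicates, so p-values measure the spread between these libraries.

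The genes and all lists were chosen with earlier results of these data known. Named genes were the 10, every measured defining endothelial marker, up to 3 called genes per other list with the largest difference at 10 µM, and the 2 most correlated genes for each of the 10. The text also gives all called genes of some lists, and SLIT2, chosen after their values were seen. Alternatives were the block, other filters, quantile or median scaling, log2(count + 1), voom, library weights, the 2 groups alone and leaving out libraries. One, the block without number 6, was chosen after seeing the data. The lists of mural, blood and carcinoma markers are given by their summed counts and, for mural and carcinoma markers, their calls at 10 µM. A called gene of one list is not reported here.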

Additional observations from a re-analysis of the deposited data

Results flagged for a closer look

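The response of 2 genes to dose differed between number 6 and numbers 8 and 11, by a test of that difference over all genes. Number 6 is a single series of libraries, so the p-values of this test do not measure the spread between label numbers. The ANGPTL4 slope per dose step was 0.54 lower in number 6 than in numbers 8 and 11 (difference -0.54 ± 0.08 SE, limma adjusted p = 0.00524), with a rise in all 3 numbers. The PECAM1 slope was 0.56 lower in number 6 (difference -0.56 ± 0.09, limma adjusted p = 0.00596), with opposite signs, -0.29 in number 6 and 0.27 in 8 and 11. Both differences passed on leaving out each library in turn. In vehicle libraries PECAM1 rested on 73, 8 and 12 reads in numbers 6, 8 and 11.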

How the results depend on the processing

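For single genes, 744 differences were recomputed at 1, 5 and 10 µM: 639 kept direction and side of the threshold, 59 lost the call, 31 gained one and 15 changed sign. The changes of sign all came on leaving libraries out and concerned uncalled values: over all leave-outs KDR ran from -0.40 to 0.04 at 1 µM, TIE1 from -0.18 to 0.07 at 1 µM, and PECAM1 from -0.38 to 0.72 at 1 µM, -0.06 to 0.85 at 5 µM and -0.10 to 0.81 at 10 µM. VEGFC at 10 µM also missed with no filter (adjusted p = 0.0513), voom (0.0602) and 2 groups alone (0.0827).

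Against vehicle, the replicate block changed 5 calls of the 10 genes, all gained: ROBO4 and ESM1 at 1 µM, TIE1 and VEGFC at 5 µM and TIE1 at 10 µM. Library weights gained 9 and lost none: ROBO4, VWF, ESM1 and ANGPTL4 at 1 µM, TIE1, VEGFC and PECAM1 at 5 µM, and TIE1 and PECAM1 at 10 µM. Genes called of the 10, at 1 µM (2): 4 with the replicate block, 1 with the stricter filter, 6 with library weights, 0 with 2 groups alone, 5 with the block without number 6, and 0 to 5 on leaving out libraries. On leaving out libraries, or all of 1 number, the count ran from 1 to 8 at 5 µM and 2 to 8 at 10 µM. It ran from 0 to 8 among the 4 groups (61 to 4693 of all genes) and 2 to 5 between label numbers (3634 to 5263 of all genes). From 1 to 5 µM (1): 2 with the block, 0 with quantile scaling, median shift or log2 counts, 5 with library weights, 3 with the block without number 6, and 0 to 4 on leaving out libraries. From 1 to 10 µM (1): 6 with the block, 2 with quantile scaling or median shift, 5 with library weights, 6 with the block without number 6, and 0 to 6 on leaving out libraries.

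Over all genes, the block called 2135, 5436 and 6824 at 1, 5 and 10 µM (319, 2684 and 4015 without it), library weights 5126, 7654 and 7394, the 2 groups alone 48, 1601 and 2553, and the block without number 6 2574, 5282 and 6285. From 1 to 5 µM (55 in the main fit), the block called 922, library weights 1830 and the block without number 6 called 702. Quantile scaling, median shift and log2 counts called 58, 54 and 51. From 1 to 10 µM (837), these were 3713, 2763 and 2590, with 936 by quantile scaling and 839 by median shift. Leaving out libraries gave 2 to 2173 at 1 µM, 137 to 4939 at 5 µM and 599 to 5935 at 10 µM. It gave 0 to 529 from 1 to 5 µM and 0 to 2123 from 1 to 10 µM. Fewer libraries enter those fits. The cause of the other shifts was not tested. Depth limits ESAM and PECAM1 most, with 8 to 104 reads per library for PECAM1.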
